A study of Mus musculus with 12 samples.

Results

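The comparison described here is between the stimulations in B cells without Pdap1: cultures stimulated with LPS and IL-4 (LPS-IL-4) against cultures of the same mice stimulated with LPS, BAFF and TGFβ (LPS-BAFF-TGFβ). Its members are the 6 libraries of Pdap1-deficient mice among the 12 libraries of the series, chosen by genotype, with the cultures of each mouse paired by mouse number (3 mice, 3 libraries per stimulation). Splenic B cells came from mice with floxed Pdap1 alleles (Pdap1F/F) and a Cre recombinase active in the B lineage, on a C57BL/6 background, and their RNA was sequenced after 48 h of culture. The 6 control libraries are from mice of the same background that carry the Cre without the floxed alleles and are given beside the results. LPS-IL-4 induces class switch recombination (CSR) to IgG1, and LPS-BAFF-TGFβ to IgG2b. In the Pdap1-deficient mice the Cre deletes exon 2 of Pdap1 in B cells, so that other cells left after the depletion of CD43+ splenocytes keep the gene. The labels also name the lymphoma line CH12 as the cell line, whereas the series title and the study's methods describe primary B cells.

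LPS activates B cells through Tlr4 and is common to both cultures. IL-4 binds the receptor chain Il4ra, and Jak kinases then phosphorylate Stat6, which drives germline transcription of Ighg1 and Ighe and the expression of its own inhibitors of the SOCS family. TGFβ binds the receptors Tgfbr1 and Tgfbr2 and acts through Smad proteins, which in B cells drive germline transcription of Ighg2b and Igha. BAFF binds Tnfrsf13c and Tnfrsf13b and feeds the NF-κB pathways. Because both cultures contain LPS and neither is a culture without cytokine, each difference is between the cytokine sets and cannot be assigned to IL-4, BAFF or TGFβ alone.

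The 6 libraries held between 4579793 and 15869143 counts, and the LPS-IL-4 libraries were the deeper in each mouse. Lars2 and the features that resemble ribosomal RNA made up 15.7% of the counts of the LPS-BAFF-TGFβ library of mouse 1, against 2.23% to 4.78% in the other 5, and Lars2 alone made up 9.9% of it. This library stands apart by that share, and results with those features and the mitochondrially encoded genes removed are given beside the counts below. The B cell markers Cd79a, Cd79b, Ms4a1 and Pax5 were present in every library. Markers of myeloid cells differed most between mice: the summed expression of the 7 was 11.98, 316 and 38.3 CPM (counts scaled to the size of the library) in mice 1, 2 and 3 with LPS-IL-4, and 15.5, 557 and 80.8 CPM with LPS-BAFF-TGFβ, with S100a8 at 0 in both libraries of mouse 1. Of the 6 myeloid markers tested, 0 were higher with LPS-IL-4 and 2 higher with LPS-BAFF-TGFβ. The 7 T cell markers summed to between 9.40 and 36.3 CPM, with Cd3e, Cd3g and Cd4 at 0 in both libraries of mouse 1. Of T cell, NK cell and erythroid markers 1, 1 and 3 passed the filter on low counts and 0 were called, and 0 of the platelet and stromal markers passed it, with sums of at most 4.62 and 1.47 CPM.

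The targeted gene was lower in each of the 6 libraries than in every control library. Pdap1 had 23.5, 27.6 and 30.2 CPM with LPS-IL-4 and 26.7, 26.4 and 23.2 CPM with LPS-BAFF-TGFβ, and the stimulations overlapped (log2 fold change 0.09 ± 0.12 SE, edgeR adjusted p = 0.636). In control mice it had between 90.8 and 96.5 CPM with LPS-IL-4 and between 80.0 and 195.7 CPM with LPS-BAFF-TGFβ. The counts are per gene and do not show exon 2 separately.

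**Figure D1:**
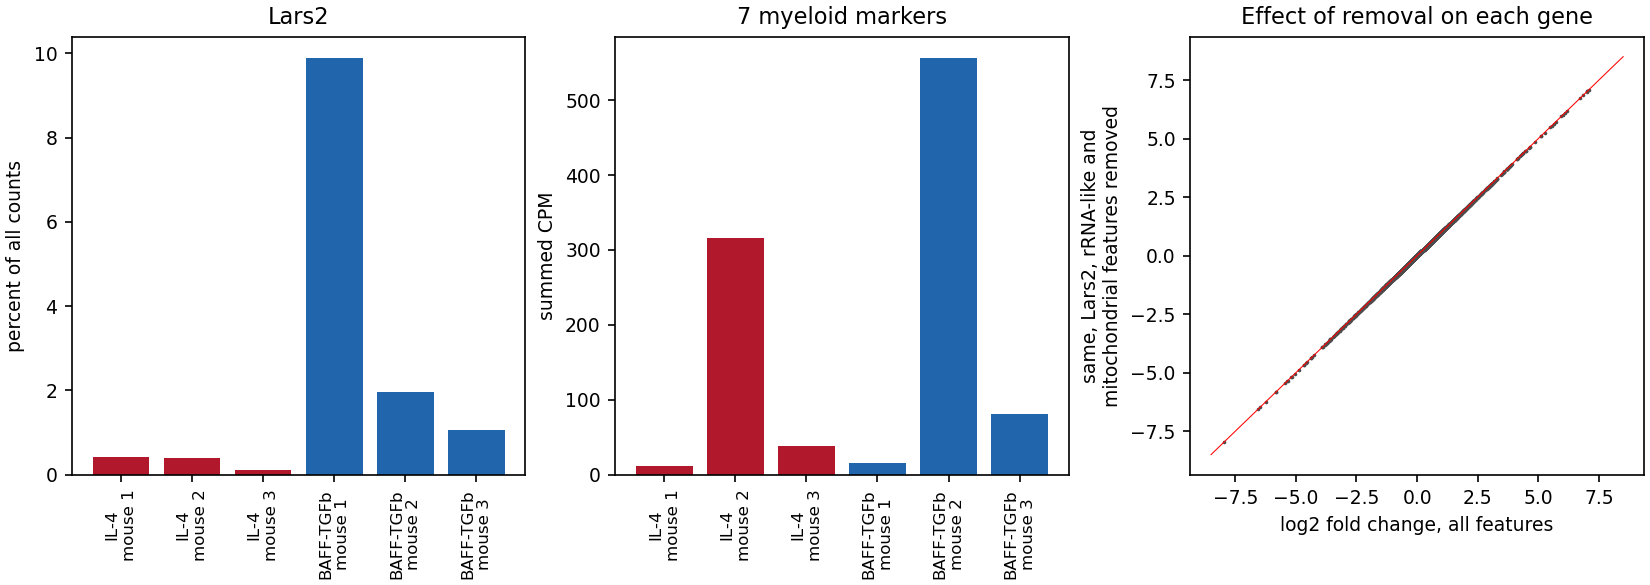
Lars2 as a percent of counts and summed CPM of 7 myeloid markers in the 6 Pdap1-deficient libraries, and the log2 fold change of each gene with and without Lars2, ribosomal RNA-like and mitochondrially encoded features. The LPS-BAFF-TGFβ library of mouse 1 has 9.9% of its counts in Lars2, mouse 2 has the most myeloid RNA in both cultures, and the fold changes lie on the diagonal with a largest shift of 0.0219.

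The stimulation separated the transcriptomes widely. Of 14617 genes tested with edgeR, 3854 (26.4%) passed an adjusted p under 0.05: 1976 (13.5%) were higher with LPS-IL-4 and 1878 (12.8%) higher with LPS-BAFF-TGFβ. Without the pairing by mouse 1675 genes were called (861 and 814), and with DESeq2 2271 (1256 and 1015). Most differences were small, since 80.2% of the genes tested moved by less than 1.5-fold. A change of more than 2-fold was seen for 634 and 554 of the called genes, and of more than 4-fold for 176 and 149, the LPS-IL-4 side being named before the other. The direction was the same in all 3 mice for 1947 of the 1976 and for 1865 of the 1878. The 3 libraries of a stimulation did not overlap those of the other for 4266 genes (29.2% of those tested), 2977 of them called. In these bulk samples a lower level of a transcript can mean fewer cells of a type or less RNA per cell, and these cannot be told apart.

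Removing Lars2, the ribosomal RNA-like features and the mitochondrially encoded genes left the comparison nearly as it was: 3867 genes were called, 3803 of them among the 3854, none changed sign, and the log2 fold change of a gene moved by at most 0.0219. Without mouse 1, 3657 genes were called, 3129 of them among the 3854. Without mouse 2 the count was 3640 and without mouse 3 it was 2576, with 1239 genes higher with LPS-BAFF-TGFβ. Lars2, the mitochondrial leucyl-tRNA synthetase gene, had 4021, 3825 and 1160 CPM with LPS-IL-4 and 110700, 18830 and 10430 CPM with LPS-BAFF-TGFβ. The groups did not overlap, but the gene was not called (log2 fold change −3.40 ± 0.78 SE, adjusted p = 0.121). Without mouse 1 it was called (adjusted p = 0.00763). The ribosomal RNA-like features tested did not separate the stimulations. Rn7sk, a small nuclear RNA listed with them but not removed, passed by a log2 fold change of −0.26 (adjusted p = 0.0263, and 0.219 without mouse 1 or 0.0723 without mouse 3).

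**Figure D2:**
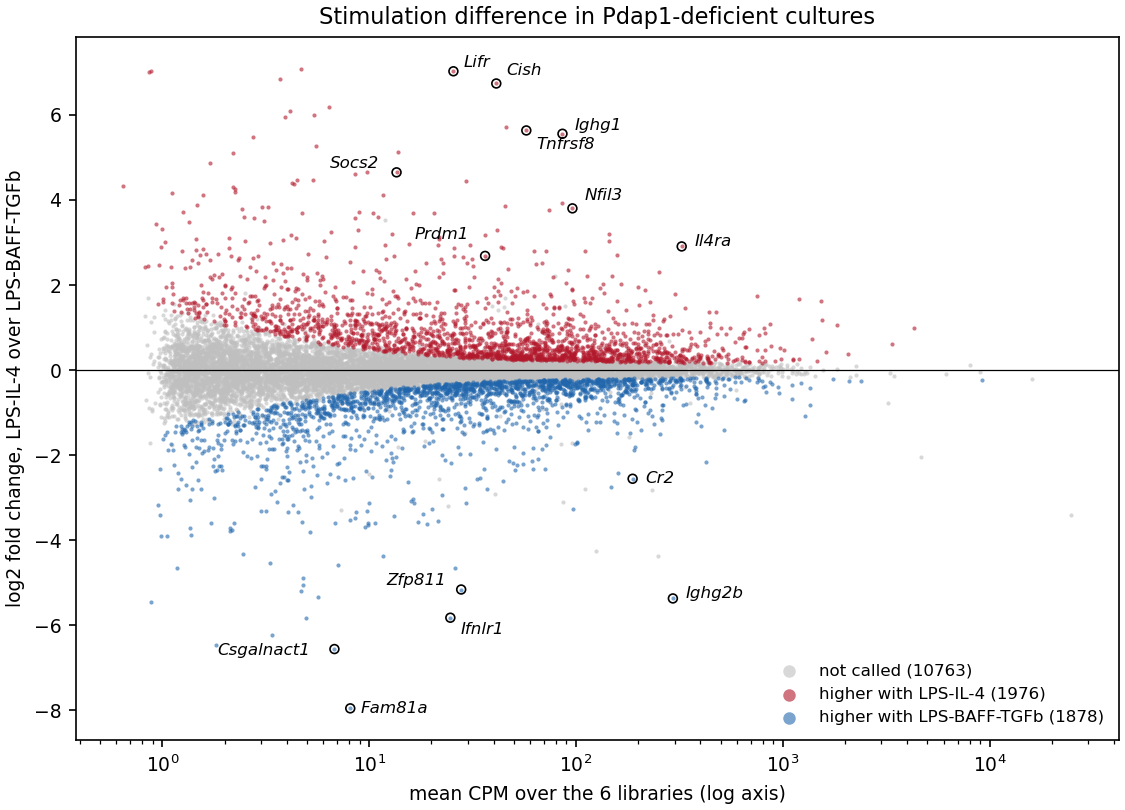
Log2 fold change of LPS-IL-4 over LPS-BAFF-TGFβ in Pdap1-deficient cultures against mean expression, 1 point per gene tested (14617 genes), with the 3854 called genes in colour and 14 genes named. Cish, Lifr and Ighg1 lie among the highest and Fam81a, Ifnlr1 and Ighg2b among the lowest, while most genes lie near 0.

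The constant region genes of the immunoglobulin heavy chain followed the isotype named for each culture. Their transcripts include the germline transcripts that precede switching, and since these genes resemble each other and spliced transcripts share exons, reads may be split between them and the values are uncertain to that extent. Ighg1 (chromosome 12, 113325240 to 113330523 of GRCm38, minus strand) had 201, 130.5 and 173 CPM in mice 1, 2 and 3 with LPS-IL-4 and 2.28, 6.49 and 2.72 CPM with LPS-BAFF-TGFβ. The groups were far apart, a difference of 47.0-fold (log2 fold change 5.56 ± 0.44 SE, adjusted p = 0.0107, and 0.174 without mouse 3), and the log2 fold change was 6.19 without mouse 2. Ighg2b (113302965 to 113307933 on the same strand) had 6.03, 23.9 and 13.8 CPM with LPS-IL-4 and 592, 565 and 564 CPM with LPS-BAFF-TGFβ. Here too the groups did not overlap, and the level was 41.3-fold higher with LPS-BAFF-TGFβ (log2 fold change −5.37 ± 0.58 SE, adjusted p = 0.0365, but 0.119 without mouse 2 and 0.277 without mouse 3).

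The other isotypes differed less. Ighe, the IgE constant region, which IL-4 is also known to open, was 12.1-fold higher with LPS-IL-4 (mean 4.58 ± 1.91 CPM against 0.382 ± 0.234 CPM, SD, n = 3, adjusted p = 2.67e-05), with a log2 fold change of 3.60 that became 2.95 without mouse 1 and 4.22 without mouse 2. Ighm and Ighd, the isotypes made before switching, were also higher with LPS-IL-4, Ighm with 5362, 5543 and 6340 CPM against 2964, 2771 and 2872 CPM and Ighd with 122, 112 and 114 CPM against 40.9, 34.1 and 29.2 CPM. Ighg3 went the other way, 2.6-fold higher with LPS-BAFF-TGFβ (log2 fold change −1.38 ± 0.19 SE). Of the 8 constant region genes 4 were thus higher with LPS-IL-4, 2 higher with LPS-BAFF-TGFβ, and Ighg2c and Igha passed in neither direction. Igha, the other target of TGFβ, had 0.157, 49.5 and 5.44 CPM with LPS-IL-4 and 3.26, 35.0 and 10.3 CPM with LPS-BAFF-TGFβ, so that the mice differed by more than the stimulations.

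**Figure D3:**
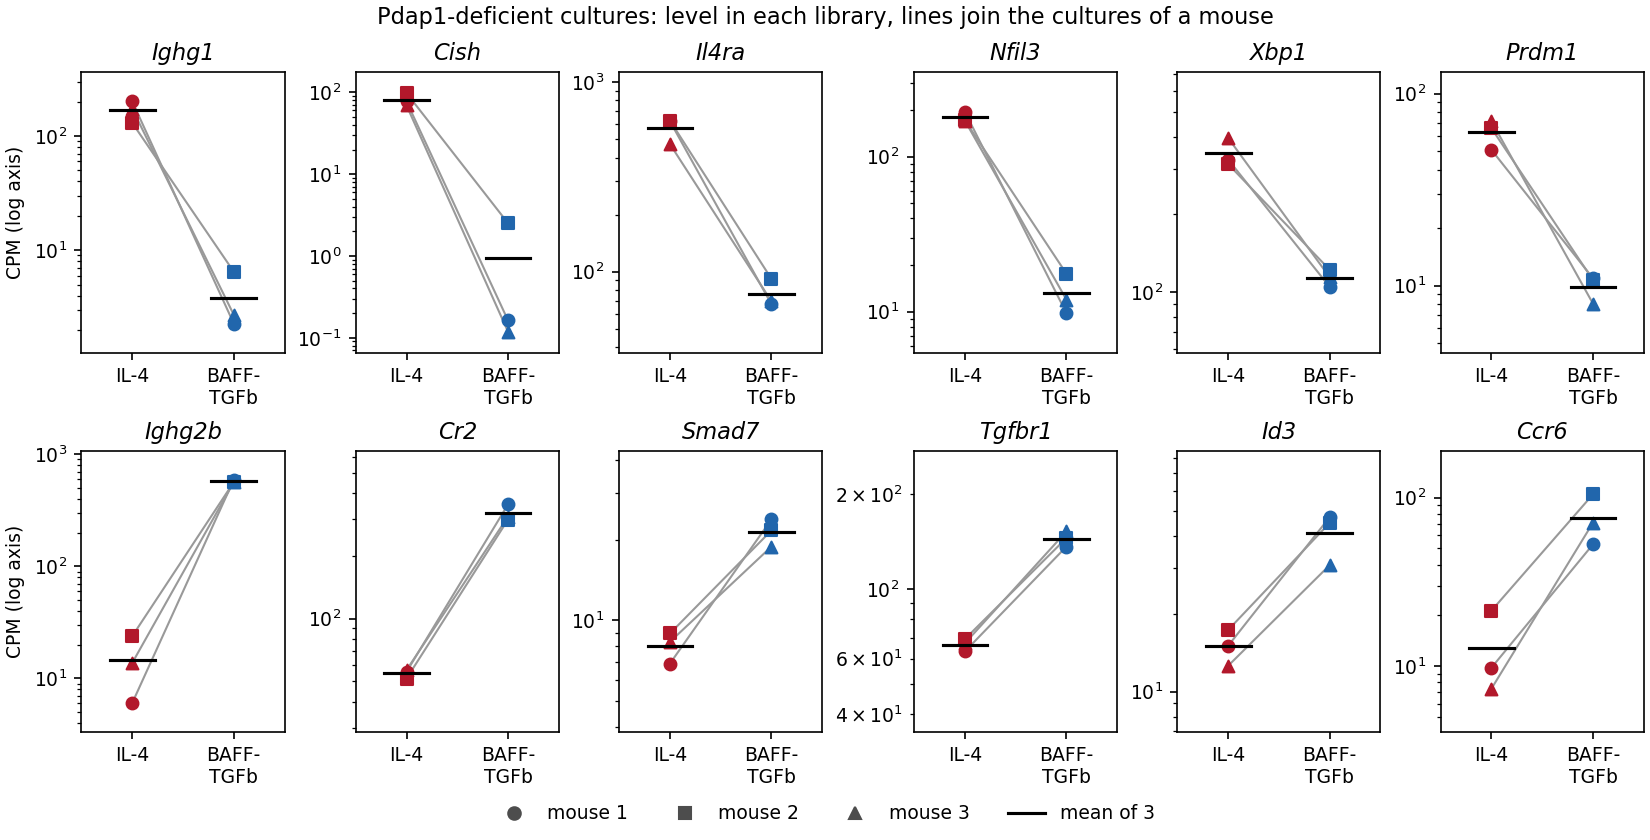
Expression (CPM, log scale) of 12 genes in Pdap1-deficient cultures, with a line joining the LPS-IL-4 and the LPS-BAFF-TGFβ culture of each of 3 mice. Ighg1, Cish, Il4ra, Nfil3, Xbp1 and Prdm1 are higher with LPS-IL-4 in each mouse, and Ighg2b, Cr2, Smad7, Tgfbr1, Id3 and Ccr6 are higher with LPS-BAFF-TGFβ.

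Gene lists are described by the members that passed the filter on low counts, 509 genes in all. The counts of every list stand beside 13.5% of all genes higher with LPS-IL-4 and 12.8% higher with LPS-BAFF-TGFβ. Genes of the IL-4 pathway were called more often than the 13.5% of all genes: 16 of 28 were higher with LPS-IL-4 and 4 higher with LPS-BAFF-TGFβ, with a median log2 fold change of 0.95 against 0.00 over all genes tested. The counts were 16 and 4 without mouse 1, 15 and 6 without mouse 2, 15 and 3 without mouse 3, and 14 and 2 without the pairing. The receptor chain Il4ra (chromosome 7, 125552120 to 125579474) had 621, 626 and 471 CPM with LPS-IL-4 and 67.4, 91.7 and 69.8 CPM with LPS-BAFF-TGFβ, 7.5-fold apart with no overlap (log2 fold change 2.91 ± 0.09 SE, adjusted p = 3.36e-11). The common γ chain Il2rg, which pairs with it, and Il13ra1, of its alternative receptor, did not pass (log2 fold changes −0.02 and 0.24). Of the kinases, Jak1 and Jak3 did not pass, and Tyk2 passed by 0.25 on the log2 scale, a call lost with any 1 mouse left out.

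Among the transducers, Stat6 did not differ beyond its error (log2 fold change −0.05). Stat5a was 1.75-fold higher with LPS-IL-4 and Stat5b slightly lower (log2 fold changes 0.81 and −0.34, the latter with adjusted p = 0.00191, and 0.0793 without mouse 3). The adaptor Irs2, which links the IL-4 receptor to phosphoinositide signalling, had 11.04, 19.2 and 14.1 CPM with LPS-IL-4 and 5.86, 7.33 and 4.50 CPM with LPS-BAFF-TGFβ, with no overlap and a log2 fold change of 1.32 ± 0.19.

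The inhibitors carried the largest differences of the pathway, with a median log2 fold change of 3.30 over 5 genes. Cish, a SOCS family protein that binds activated cytokine receptors (chromosome 9, 107296026 to 107302784), had 77.4, 97.8 and 69.2 CPM with LPS-IL-4 and 0.163, 2.51 and 0.118 CPM with LPS-BAFF-TGFβ, a difference of 107-fold (log2 fold change 6.74 ± 0.48 SE, adjusted p = 0.00195). The fold depends most on mouse 2, without which the log2 fold change of Cish was 8.92, against 6.29 and 6.16 without mice 1 and 3. Socs2 had 36.7, 23.1 and 18.6 CPM against 0.326, 1.88 and 0.947 CPM, and Socs1, which blocks Jak kinases, 14.0, 21.5 and 12.6 CPM against 0.651, 3.14 and 1.30 CPM. In each of these the stimulations were apart in every mouse. Socs3 was also higher with LPS-IL-4 in each mouse (17.1, 44.1 and 16.1 CPM against 5.05, 26.2 and 4.61 CPM), but mouse 2 with LPS-BAFF-TGFβ stood above mice 1 and 3 with LPS-IL-4. Its log2 fold change was 1.29 ± 0.20 SE (adjusted p = 0.000679 paired, 0.548 unpaired). The phosphatase Ptpn6 (Shp-1) was the member lower with LPS-IL-4 (log2 fold change −0.55 ± 0.07).

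Of the known targets of IL-4 in lymphocytes, 8 of 13 were higher with LPS-IL-4 and 2 higher with LPS-BAFF-TGFβ. Nfil3, a transcription factor involved in the switch to IgE, had 195, 172 and 171 CPM against 9.77, 17.6 and 11.95 CPM, 13.9-fold apart with no overlap. Fcer2a, the low-affinity IgE receptor CD23, had 239, 206 and 208 CPM against 104, 120.2 and 84.8 CPM, again without overlap (log2 fold change 1.09 ± 0.09 SE, adjusted p = 6.86e-07). The survival factor Bcl2l1 was 3.04-fold higher (adjusted p = 5.79e-09), and Gadd45g, Gfi1, Il4i1 and Hipk2 were higher as well, with log2 fold changes of 3.06, 1.81, 1.64 and 1.19. The tetraspanin Tspan33 went the other way (0.940, 1.48 and 0.746 CPM against 4.88, 6.49 and 4.50 CPM). The costimulatory gene Cd86 and the chemokine gene Ccl22 did not pass.

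In the 250 bases before the annotated start, 2 of 27 IL-4 pathway genes with a window held the STAT motif TTCNNNGAA, which 8.13% of 27025 mouse genes hold in a window of this length, and 2 of 27 the form with a longer spacer, TTCNNNNGAA, known for Stat6, which 6.76% hold. Both motifs were searched on both strands, and a match is a description of the letters. The member of each that was higher with LPS-IL-4 is printed, from RefSeq on GRCm38.p6 and on the strand of the gene. The match is in capitals, 154 bases before the start of Socs3 (chr11:117969367-117969616, minus strand) and 168 bases before the start of Fcer2a (chr8:3690862-3691111, minus strand, 1 of 3 windows of that gene).
Socs3: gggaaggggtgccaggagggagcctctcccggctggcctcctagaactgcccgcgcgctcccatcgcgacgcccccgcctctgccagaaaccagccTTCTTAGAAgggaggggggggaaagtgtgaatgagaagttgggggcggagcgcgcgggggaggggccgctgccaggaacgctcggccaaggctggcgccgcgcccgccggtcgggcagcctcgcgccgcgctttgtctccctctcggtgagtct
Fcer2a: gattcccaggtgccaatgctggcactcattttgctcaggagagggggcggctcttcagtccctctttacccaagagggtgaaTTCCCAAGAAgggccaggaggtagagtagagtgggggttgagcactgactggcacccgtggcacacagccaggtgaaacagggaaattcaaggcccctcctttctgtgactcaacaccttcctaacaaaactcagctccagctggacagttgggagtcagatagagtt

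Of 39 genes tested in the TGFβ pathway, 14 were higher with LPS-BAFF-TGFβ and 6 higher with LPS-IL-4 (median log2 fold change −0.26, with 13 and 5 without mouse 1, 12 and 7 without mouse 2, 12 and 6 without mouse 3, and 9 and 4 without the pairing). Over all genes, 12.8% and 13.5% were called in these directions. The ligand gene Tgfb1 was called by a small difference (log2 fold change −0.26), lost with any 1 mouse left out, and Lrrc32, which holds latent TGFβ at the cell surface, was higher with LPS-IL-4 (1.24 ± 0.16). Both chains of the TGFβ receptor were higher in the culture that contained their ligand. Tgfbr1 had 63.3, 69.3 and 67.2 CPM with LPS-IL-4 and 136, 145 and 153 CPM with LPS-BAFF-TGFβ (log2 fold change −1.12 ± 0.08 SE, adjusted p = 7.53e-09). Tgfbr2 had 92.8, 127 and 113 CPM against 222, 255 and 215 CPM (−1.06 ± 0.08 SE), and the activin receptor Acvr1b was higher by a smaller step (−0.67 ± 0.12). The other 5 receptors tested did not pass. None of the called receptors overlapped between stimulations.

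Of the Smad transducers, Smad3 was 2.54-fold higher with LPS-IL-4 (30.9, 35.9 and 32.7 CPM against 12.4, 13.0 and 13.6 CPM), the reverse of the receptors. Smad2, Smad4 and Smad5 did not pass (log2 fold changes 0.17, 0.10 and 0.10), and Smad1 passed at 0.97 (adjusted p = 0.0124, and 0.0883 without mouse 1). The feedback inhibitors were higher with LPS-BAFF-TGFβ in 4 of 10 and with LPS-IL-4 in 0. Ldlrad4, which sequesters receptor-regulated Smads, had 1.65, 2.59 and 1.92 CPM against 18.2, 18.6 and 17.2 CPM (8.72-fold, adjusted p = 5.72e-09). Smad7, which brings ubiquitin ligases to the receptor, had 6.89, 8.94 and 8.32 CPM against 23.9, 21.8 and 18.9 CPM (log2 fold change −1.42 ± 0.16 SE). Skil (SnoN), a corepressor that binds Smads, had 260.5, 360.1 and 339.7 CPM against 561, 589.9 and 631 CPM (−0.90 ± 0.07 SE). In these 3 genes every LPS-BAFF-TGFβ library was above every LPS-IL-4 library, while the call for Smurf2 (−0.26) was lost with any 1 mouse left out.

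The targets of TGFβ were mixed, with 4 of 10 higher with LPS-BAFF-TGFβ and 2 higher with LPS-IL-4. Id3 and Id2, inhibitors of E proteins, had log2 fold changes of −1.45 ± 0.11 SE and −1.08 ± 0.17 SE, and Id3 had 15.0, 17.3 and 12.6 CPM against 47.4, 45.0 and 30.9 CPM. Runx3, a factor required for the germline transcript of IgA, was higher with LPS-BAFF-TGFβ within each mouse (25.4, 59.4 and 31.1 CPM against 58.0, 81.0 and 45.9 CPM), but the groups overlapped (adjusted p = 0.00199 paired, 0.393 unpaired). Tgfbi had 0.0783, 2.59 and 0.320 CPM against 0.163, 34.3 and 3.43 CPM, so that mouse 2, with the most myeloid RNA, set its level in both cultures. The part of myeloid cells in this difference was not tested, and without mouse 2 the gene did not pass the filter on low counts. The cell cycle inhibitors Cdkn2b and Cdkn1a, which TGFβ is known to raise in epithelial cells, were higher with LPS-IL-4 (log2 fold changes 2.18 and 1.66, for Cdkn1a with overlap and adjusted p = 0.0025 paired, 0.192 unpaired). A window of Runx3 is printed, the only TGFβ pathway gene (33 had a window) with the Smad palindrome GTCTAGAC, which 0.2% of all genes with a window hold. The match is in capitals, 175 bases before the start (chr4:135152295-135152544, plus strand, 1 of 2 windows of that gene).
Runx3: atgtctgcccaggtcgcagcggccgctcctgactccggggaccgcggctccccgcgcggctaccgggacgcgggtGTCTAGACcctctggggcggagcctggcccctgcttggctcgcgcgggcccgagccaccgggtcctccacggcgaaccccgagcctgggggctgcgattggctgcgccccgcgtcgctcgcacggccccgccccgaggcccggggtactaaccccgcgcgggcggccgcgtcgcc

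BAFF receptors and NF-κB genes went both ways, with 12 of 37 higher with LPS-IL-4 and 9 higher with LPS-BAFF-TGFβ (median log2 fold change 0.10). The BAFF receptor Tnfrsf13c and the related receptor Tnfrsf13b (TACI) were higher with LPS-BAFF-TGFβ (log2 fold changes −0.35 ± 0.06 SE and −0.57 ± 0.06 SE), and the LPS receptor Tlr4 was higher with LPS-IL-4 (1.09 ± 0.12). The subunits of NF-κB moved in opposite directions: Nfkb1, the p105 precursor of the canonical pathway, had 1176, 981 and 1089 CPM against 536, 533 and 564 CPM, and Nfkb2, the p100 precursor of the pathway BAFF is known to engage, 135, 134 and 131 CPM against 198, 227 and 175 CPM. Neither gene overlapped. The inhibitor genes Nfkbia and Nfkbiz were higher with LPS-BAFF-TGFβ, Nfkbiz with 104, 113 and 121 CPM against 327, 260.2 and 316 CPM (log2 fold change −1.41 ± 0.08 SE, adjusted p = 2.20e-09). Bcl2, the survival factor downstream of BAFF, had 74.3, 104 and 91.1 CPM against 187, 185 and 180.3 CPM, 2.07-fold higher with LPS-BAFF-TGFβ with no overlap.

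In the BCL2 family, 3 of 14 genes were higher with LPS-IL-4 and 3 higher with LPS-BAFF-TGFβ, against 13.5% and 12.8% of all genes. The antiapoptotic genes split, with Bcl2l1 higher with LPS-IL-4 and Bcl2 higher with LPS-BAFF-TGFβ. The proapoptotic genes split as well: Bcl2l11 (Bim) had 52.9, 82.4 and 55.5 CPM against 26.5, 32.9 and 27.4 CPM and Pmaip1 (Noxa) was 2.13-fold higher with LPS-IL-4, whereas Bmf had 7.68, 11.03 and 8.53 CPM against 36.5, 37.1 and 34.3 CPM. Mcl1, Bax and Bak1 did not pass (log2 fold changes 0.06, 0.17 and 0.23).

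In the machinery of class switching 29 of 41 genes were not called. Of the rest 2 were higher with LPS-IL-4, below the 13.5% of all genes. The 10 higher with LPS-BAFF-TGFβ were above the 12.8% of all genes (6 without the pairing). The median log2 fold change was −0.12. Batf, a transcription factor needed for switching, was higher with LPS-BAFF-TGFβ by a small step (log2 fold change −0.40, adjusted p = 0.00143 paired, 0.178 unpaired), and the B cell factors Irf4 and Pax5 did not pass (−0.01 and −0.11). Among repair genes, Hmces, which shields abasic sites, had 3.29, 5.24 and 4.37 CPM against 0.326, 0.209 and 0.118 CPM. The difference of 19.2-fold rests on very few counts with LPS-BAFF-TGFβ, so its size is uncertain. The kinase Atm was 1.69-fold higher with LPS-IL-4. Uracil glycosylase Ung and the break response genes Trp53bp1, Rif1, Shld1 and Xrcc4 did not pass.

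**Figure D4:**
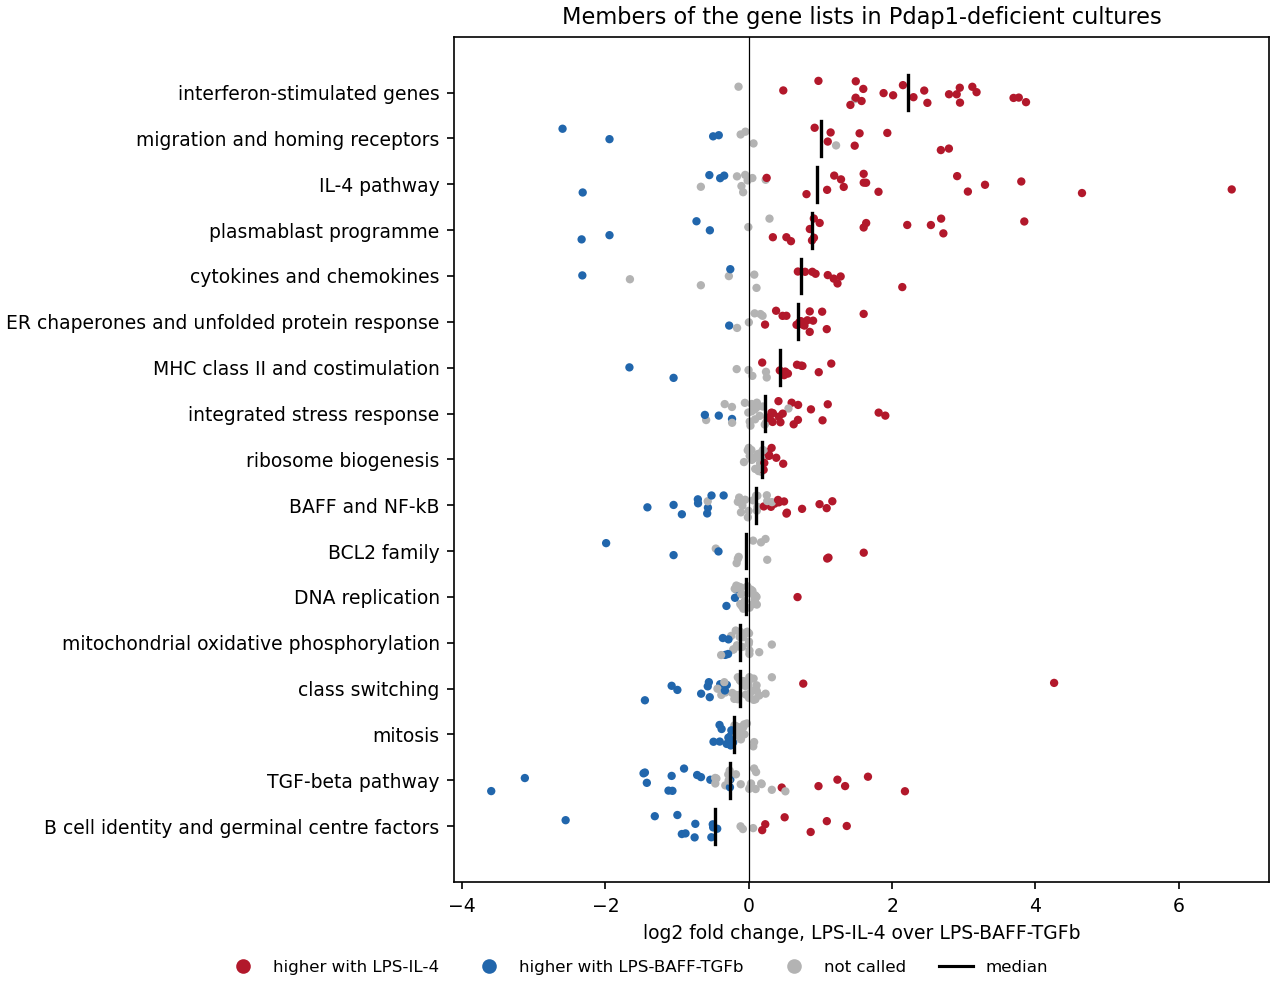
Log2 fold changes of the tested members of each gene list in Pdap1-deficient cultures, 1 point per gene, with called genes in colour and the list median marked. Interferon-stimulated genes lie to the LPS-IL-4 side with a median of 2.22, and the lists of DNA replication and oxidative phosphorylation lie around 0.

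Genes of the plasmablast programme were higher with LPS-IL-4 in 15 of 21 and lower in 4 (median log2 fold change 0.88). The count of 15 was 11 without mouse 1, 14 without mouse 2, 12 without mouse 3, 11 with DESeq2 and 9 without the pairing. Prdm1, which encodes Blimp-1, the factor that ends the B cell programme (chromosome 10, 44437177 to 44528501), had 50.9, 65.9 and 71.7 CPM with LPS-IL-4 and 10.9, 10.7 and 8.04 CPM with LPS-BAFF-TGFβ (6.43-fold, adjusted p = 2.06e-08). Xbp1, the factor of the secretory pathway and also a target of IL-4, had 326, 313 and 396 CPM against 105, 122 and 114 CPM. Bhlha15 (Mist1) and Eaf2, both of plasma cells, were 14.4-fold and 5.82-fold higher. In none of these 4 genes did the groups overlap. Jchain, the chain that joins IgM pentamers, was higher in each mouse (6.42, 48.3 and 23.6 CPM against 1.30, 19.7 and 6.27 CPM), with overlap (adjusted p = 1.42e-06 paired, 0.538 unpaired). Calls of the list that ended without 1 or more of the mice were Ly6a (adjusted p = 0.205 without mouse 1), Mzb1, Sdc1, Creb3l2 and Prdx4, all higher with LPS-IL-4, and Slpi. Higher with LPS-BAFF-TGFβ were Cd93, a receptor kept on long-lived plasma cells (17.4, 19.6 and 25.4 CPM against 111, 98.2 and 102 CPM), and the homing receptor Cxcr4 (log2 fold change −1.94 ± 0.30 SE, adjusted p = 0.0325, and 0.130 without mouse 3).

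The folding machinery of the endoplasmic reticulum (ER) was higher along with them: 16 of 22 genes of ER chaperones and the unfolded protein response were higher with LPS-IL-4 and 1 higher with LPS-BAFF-TGFβ (median log2 fold change 0.69, and between 15 and 17 higher without each mouse). The chaperone Hspa5 (BiP) had 1871, 1366 and 1939 CPM against 1029, 939 and 1129 CPM, and Hsp90b1 (Grp94) 1217, 1008 and 1311 CPM against 513, 536 and 610.3 CPM. In both genes each LPS-IL-4 library was above each LPS-BAFF-TGFβ library (adjusted p = 8.59e-07 and 5.20e-09). The disulphide isomerases Pdia4, Pdia6 and Pdia3 had log2 fold changes of 1.02, 0.75 and 0.67. Dnajb9 was the gene higher with LPS-BAFF-TGFβ, by 0.27 on the log2 scale, a call lost without mouse 2 or 3. The ER stress response element, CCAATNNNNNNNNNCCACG searched on both strands, was in the windows of 8 of 19 genes of this list and of 0.13% of all genes with a window, and 6 of the 8 were higher with LPS-IL-4. The windows of the 2 chaperones with their matches in capitals lie at chr2:34771840-34772089 (Hspa5, plus strand, 65 bases before the start) and chr10:86705445-86705694 (Hsp90b1, minus strand, 212 and 107 bases before the start).
Hspa5: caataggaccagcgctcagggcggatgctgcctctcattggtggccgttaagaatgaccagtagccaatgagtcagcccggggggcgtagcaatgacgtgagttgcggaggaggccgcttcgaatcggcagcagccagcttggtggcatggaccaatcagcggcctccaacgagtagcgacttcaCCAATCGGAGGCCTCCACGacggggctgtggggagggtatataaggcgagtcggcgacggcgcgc
Hsp90b1: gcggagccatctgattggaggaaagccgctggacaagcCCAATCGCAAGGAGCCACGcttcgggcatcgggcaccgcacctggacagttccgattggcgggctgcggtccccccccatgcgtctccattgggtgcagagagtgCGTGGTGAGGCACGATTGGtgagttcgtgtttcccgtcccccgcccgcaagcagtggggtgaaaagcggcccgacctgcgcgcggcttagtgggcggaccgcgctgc

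Factors of B cell identity and the germinal centre fell mostly on the other side, with 11 of 20 higher with LPS-BAFF-TGFβ and 6 higher with LPS-IL-4 (median log2 fold change −0.47). Without the pairing these counts were 7 and 4. Cr2 (CD21), the complement receptor (chromosome 1, 195136811 to 195176716), had 55.6, 51.6 and 56.6 CPM with LPS-IL-4 and 354, 299.6 and 309.8 CPM with LPS-BAFF-TGFβ, 5.88-fold apart (adjusted p = 9.23e-13). The transcription factors Spib, Ebf1, Mef2b, Ets1, Bach2 and Bcl6 were higher with LPS-BAFF-TGFβ, with log2 fold changes between −0.93 and −0.44. Spib had 158, 157 and 152 CPM against 306, 308 and 279.9 CPM, with no overlap, while Bcl6 and Bach2, which hold back plasma cell differentiation, lost their call without the pairing (adjusted p = 0.0612 and 0.340). The B cell receptor gene Cd79b, the coreceptor gene Cd22 and the surface gene Ms4a1 (CD20) were higher with LPS-IL-4. Cd79b had 679, 690.1 and 681 CPM against 269, 256 and 270.1 CPM, whereas Cd79a and Pax5 did not pass.

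Antigen presentation genes were higher with LPS-IL-4 in 10 of 17 and with LPS-BAFF-TGFβ in 2. H2-DMa, which loads peptide onto class II molecules, had 142, 142 and 132 CPM against 69.0, 78.9 and 64.1 CPM, and H2-Eb1, H2-Ab1, H2-Aa and Cd74 had log2 fold changes between 0.43 and 0.75. The exceptions were the costimulatory ligands Icosl (7.75, 12.2 and 9.38 CPM against 31.9, 29.9 and 30.5 CPM) and Cd80 (log2 fold change −1.05 ± 0.16 SE). Homing receptors were higher with LPS-IL-4 in 8 of 16 and with LPS-BAFF-TGFβ in 4. S1pr1, the receptor for exit from lymphoid tissue, had 33.0, 53.5 and 45.3 CPM against 2.93, 12.4 and 6.51 CPM. Klf2, a factor known to drive S1pr1 in lymphocytes, was 3.82-fold higher. The chemokine receptor Ccr6 went the other way, with 9.79, 21.3 and 7.36 CPM against 52.8, 105 and 70.9 CPM, and groups that did not overlap.

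Of the cytokine and chemokine genes, 9 of 16 were higher with LPS-IL-4 and 2 higher with LPS-BAFF-TGFβ. The 9 became 7, 7 and 6 without mice 1, 2 and 3, 5 with DESeq2 and 3 without the pairing. Ltb, lymphotoxin β, had 12.9, 11.5 and 11.4 CPM against 58.6, 64.9 and 55.7 CPM, 5.0-fold higher with LPS-BAFF-TGFβ (adjusted p = 8.99e-11). Il6 had 47.1, 79.4 and 74.7 CPM against 7.65, 29.9 and 12.2 CPM, also without overlap, but its call was lost without mouse 1 (adjusted p = 0.0292 with 3 mice, 0.246 without mouse 1). Vegfa, an angiogenic factor and a target of the stress response, was 2.15-fold higher with LPS-IL-4 (68.9, 35.1 and 59.3 CPM against 29.0, 20.1 and 26.2 CPM). Ccl3 followed the mice and not the stimulation, with 0.783, 101 and 14.8 CPM against 0.326, 92.3 and 15.6 CPM, the order of the myeloid markers over the mice.

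Interferon-stimulated genes made up the list with the largest median. Of 24 tested, 22 were higher with LPS-IL-4 and 0 higher with LPS-BAFF-TGFβ (median log2 fold change 2.22), with 23, 21 and 21 higher without mouse 1, 2 and 3 in turn. The guanylate-binding protein gene Gbp2 had 358, 485 and 410.5 CPM against 74.6, 106 and 76.3 CPM, and the ubiquitin-like Isg15 33.1, 81.2 and 46.5 CPM against 5.54, 15.7 and 8.52 CPM. Both separated the stimulations without overlap (log2 fold changes 2.30 ± 0.07 SE and 2.45 ± 0.12 SE). Oas3, of the antiviral oligoadenylate synthetases, had 13.9, 181 and 59.8 CPM against 1.30, 14.9 and 2.603 CPM, a 14.6-fold difference within mice (adjusted p = 1.41e-10), with mouse 2 of the LPS-BAFF-TGFβ cultures above mouse 1 of the LPS-IL-4 cultures. That overlap was common in the list, where 22 of 24 genes were higher with LPS-IL-4 in all 3 mice but 11 had groups that did not overlap, against 29.2% of all genes. Without the pairing by mouse 6 of 24 were called, and the adjusted p of Oas3 was 0.225.

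The order of the mice in these genes, mouse 2 highest and mouse 1 lowest in both cultures for Oas3, Isg15, Zbp1, Rsad2, Irf7 and Mx1, was also the order of the myeloid markers, whose summed level was higher with LPS-BAFF-TGFβ in each mouse, opposite to the interferon-stimulated genes. The part of other cells in the levels was not tested. In the list, Ifit2 did not pass (adjusted p = 0.214), while the call of Ifit3 was lost without mouse 2 or mouse 3 (adjusted p = 0.0618 and 0.298). The interferon-stimulated response element GAAANNGAAA, searched on both strands, was in the windows of 9 of 18 genes of the list that have one and of 3.46% of all genes with a window, and each of the 9 was higher with LPS-IL-4. The windows of Gbp2 (chr3:142620413-142620662, plus strand) and Isg15 (chr4:156200819-156201068, minus strand) are printed with the matches in capitals. They lie 59 bases before the start of Gbp2, and 78, 72 and 66 bases before the start of Isg15, where the 3 matches overlap.
Gbp2: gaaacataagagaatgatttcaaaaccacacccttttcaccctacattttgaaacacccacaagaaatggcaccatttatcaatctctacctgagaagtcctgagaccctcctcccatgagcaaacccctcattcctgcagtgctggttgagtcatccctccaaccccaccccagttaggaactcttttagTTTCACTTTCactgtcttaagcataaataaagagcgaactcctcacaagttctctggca
Isg15: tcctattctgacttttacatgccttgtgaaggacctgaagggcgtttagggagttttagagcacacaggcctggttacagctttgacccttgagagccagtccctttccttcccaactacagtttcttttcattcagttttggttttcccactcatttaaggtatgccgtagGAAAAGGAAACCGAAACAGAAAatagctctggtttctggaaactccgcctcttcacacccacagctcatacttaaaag

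Of the integrated stress response, in which phosphorylation of eIF2α raises the translation of Atf4 and so the genes for amino acid supply, 18 of 40 genes were higher with LPS-IL-4 and 3 higher with LPS-BAFF-TGFβ, mostly by small steps (median log2 fold change 0.23, with 16, 18 and 13 higher with LPS-IL-4 without mice 1, 2 and 3, 14 with DESeq2 and 10 without the pairing). The larger ones were in transcription factors. Nupr1 and Atf5 were 3.74-fold and 3.51-fold higher, and Atf3 had 23.8, 44.9 and 37.0 CPM against 16.6, 18.6 and 15.5 CPM, without overlap. Atf4 itself differed by a log2 fold change of 0.26, a call lost without mouse 3. Of 13 genes for amino acid enzymes, 2 were higher with LPS-IL-4 and 1 higher with LPS-BAFF-TGFβ. Their log2 fold changes lay between −0.59 and 0.69, with a median of 0.08. Asns, asparagine synthetase, was near even, with 534, 292 and 472 CPM against 445, 341 and 448 CPM (log2 fold change 0.04 ± 0.08 SE). Psat1, Phgdh, Shmt2 and Mthfd2 had log2 fold changes between −0.01 and 0.12. Of 9 amino acid transporters, 5 were higher with LPS-IL-4 (2 without the pairing) and 1 higher with LPS-BAFF-TGFβ, with a median of 0.33. The 1 was Slc38a2 (−0.61 ± 0.06 SE, adjusted p = 7.84e-07). The stress targets Chac1 and Ddit4 did not pass (0.24 and −0.34).

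Cell division genes differed by small steps. DNA replication genes were called in 4 of 30, 1 higher with LPS-IL-4 and 3 higher with LPS-BAFF-TGFβ, against 13.5% and 12.8% of all genes. The 27 mitosis genes were called in 0 and 13, the latter above the 12.8% of all genes, the lowest being Ccnb2 at a log2 fold change of −0.49. The 13 became 15 without mouse 1, 10 without mouse 2, 4 without mouse 3, 7 with DESeq2 and 3 without the pairing. The 3 replication genes became 4, 2 and 0 without mice 1, 2 and 3, 1 with DESeq2 and 0 without the pairing. The G1 regulators differed more, with opposite signs: the cyclin gene Ccnd2 had 910.2, 977 and 847 CPM against 455, 509.7 and 435 CPM and Ccne1 was 1.6-fold higher with LPS-IL-4, whereas the kinase gene Cdk6 had 138, 119.9 and 138 CPM against 403, 343 and 380.4 CPM and the inhibitor Cdkn1b was 1.63-fold higher with LPS-BAFF-TGFβ. Ribosome biogenesis genes were higher with LPS-IL-4 in 12 of 32, by at most 0.48 on the log2 scale, and this count was 3, 19 and 2 without mice 1, 2 and 3, 6 with DESeq2 and 0 without the pairing. Of glycolysis and hypoxia genes 4 of 20 were higher with LPS-IL-4 and 2 higher with LPS-BAFF-TGFβ, of cholesterol and fatty acid synthesis genes 6 and 1 of 24, and of oxidative phosphorylation genes 0 and 4 of 24, against 13.5% and 12.8% of all genes. With mice 1, 2 and 3 left out in turn, glycolysis and hypoxia genes gave 4, 5 and 2 higher with LPS-IL-4 and 5, 2 and 1 higher with LPS-BAFF-TGFβ, and 2 and 0 without the pairing. The 6 cholesterol and fatty acid genes became 1, 8 and 2, with 3 by DESeq2 and 1 without the pairing. The 4 oxidative phosphorylation genes became 6, 3 and 2, with 1 by DESeq2 and 1 without the pairing. The lipid elongase Elovl6 was 2.03-fold higher with LPS-BAFF-TGFβ.

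Outside the lists, the genes with the largest differences in level included surface receptors and enzymes. Lifr, the receptor chain for leukaemia inhibitory factor (chromosome 15, 7090614 to 7197489), had 55.2, 56.1 and 40.5 CPM with LPS-IL-4, 0 CPM with LPS-BAFF-TGFβ in mice 1 and 3 and 1.47 CPM in mouse 2 (log2 fold change 7.03 ± 0.54 SE, adjusted p = 0.00125). Without mouse 2 no count of Lifr was left with LPS-BAFF-TGFβ and the fitted value depends on the prior count, while it was 6.38 and 6.399 without mice 1 and 3. Tnfrsf8 (CD30), a receptor of activated lymphocytes (chromosome 4, 145267137 to 145315164), had 124, 92.5 and 122 CPM against 2.12, 3.14 and 1.89 CPM, 49.6-fold apart (adjusted p = 9.23e-13). Lad1 was called at a log2 fold change of 5.73 (adjusted p = 0.0393), a call lost without mouse 1 or mouse 3 (0.167 and 0.309), and its log2 fold change was 7.22 without mouse 2. Thy1, Serpina3f, Ryr2 and Cst7 had log2 fold changes between 4.47 and 5.26, of which Thy1 moved to 6.27 without mouse 2 and Ryr2 to 3.96 without mouse 3. Iigp1 had 4.65 (3.23 without mouse 2 and 5.28 without mouse 3), with 1.41, 49.6 and 5.86 CPM with LPS-IL-4 (adjusted p = 4.36e-08 paired, 0.226 unpaired). Insm1, a zinc finger factor, had 402 counts over the LPS-IL-4 libraries and 3 over the LPS-BAFF-TGFβ libraries, a depth-corrected ratio of 67.6 (95% counting interval 23.0 to 329). By the smallest p the list begins with Snx29 (236, 342 and 201 CPM against 25.2, 37.9 and 22.01 CPM, adjusted p = 2.38e-13), followed by Tnfrsf8, Gbp2, Zcchc18, Sypl, Nabp1, Chst11 and St7, with log2 fold changes between 1.78 and 5.63.

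Higher with LPS-BAFF-TGFβ were Ifnlr1, the receptor chain for type III interferon, with 0.313, 1.73 and 0.213 CPM with LPS-IL-4 and 54.5, 46.7 and 44.7 CPM with LPS-BAFF-TGFβ (56.6-fold, log2 fold change −5.82, adjusted p = 0.0033, and −7.47 without mouse 2), and Csgalnact1, an enzyme of chondroitin sulphate synthesis, with 0, 0.185 and 0.213 CPM against 15.8, 12.8 and 11.8 CPM. Fam81a had 2 counts over the LPS-IL-4 libraries and 310 over the LPS-BAFF-TGFβ libraries, a depth-corrected ratio of 307 (95% counting interval 84.3 to 2550). Both intervals cover counting error and not the spread between mice. Elovl7, Zfp811, Strip2, Dkk3, Spns3, Atp1b1 and Gfi1b followed, with log2 fold changes between −5.34 and −3.60 (Zfp811 moved from −5.16 to −6.05 without mouse 2), and each kept its call with any 1 mouse left out. The smallest p belonged to Cr2, followed by Btla, an inhibitory receptor (79.7, 84.6 and 80.1 CPM against 307, 298 and 293 CPM), Ly6d, the receptor of bacterial lipoproteins Tlr2 (4.31, 8.51 and 5.22 CPM against 45.6, 64.3 and 47.6 CPM), Ksr1, Prkcb, Cdk6 and the cytokine receptor Flt3, which is also a marker of dendritic cells (12.6, 19.6 and 23.0 CPM against 63.2, 97.8 and 94.5 CPM). The other dendritic cell marker tested, Zbtb46, did not pass.

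Mouse 2 was the least extreme of the mice in these genes. Over the 85 genes called at more than 4-fold higher with LPS-IL-4, and with a mean of at least 10 CPM there, the level in the LPS-BAFF-TGFβ culture was a median of 12.7%, 14.8% and 12.1% of that in the LPS-IL-4 culture in mice 1, 2 and 3, and mouse 2 had the highest level of the 3 LPS-BAFF-TGFβ cultures for 73 of the 85. Over the 69 genes higher with LPS-BAFF-TGFβ by the same rule the medians were 12.5%, 17.6% and 13.1%, with mouse 2 the highest of the LPS-IL-4 cultures for 45. These genes were chosen by the same contrast, so that the values describe them and test nothing.

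In control B cells the same comparison called 1989 of 14882 genes (13.4%). The spread left after the mouse block was wider there (median biological coefficient of variation 19.8% against 9.38% in Pdap1-deficient cultures). The LPS-BAFF-TGFβ library of control mouse 1 stands apart with 69500640 counts, and without that mouse 5281 genes were called in control cells, so that the counts of calls in the genotypes cannot be set against each other. Across the 14250 genes tested in both, which are not independent replicates, the fold changes had a Pearson correlation of 0.853 (0.834 without control mouse 1). The genes called in both, 1661 in number, had the same direction in both, and they were 43.9% of the Pdap1-deficient and 86.1% of the control calls. Of the 3786 Pdap1-deficient calls tested in control cells, 3657 (96.6%) had the same sign there. Ighg1 had 392, 415 and 399 CPM against 3.02, 1.70 and 3.28 CPM in control cultures (log2 fold change 7.21), and Ighg2b 8.498, 6.17 and 12.3 CPM against 531, 609.8 and 637 CPM (−6.08). Cish had 77.1, 70.1 and 77.9 CPM against 0.203, 0 and 0.121 CPM there.

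**Figure D5:**
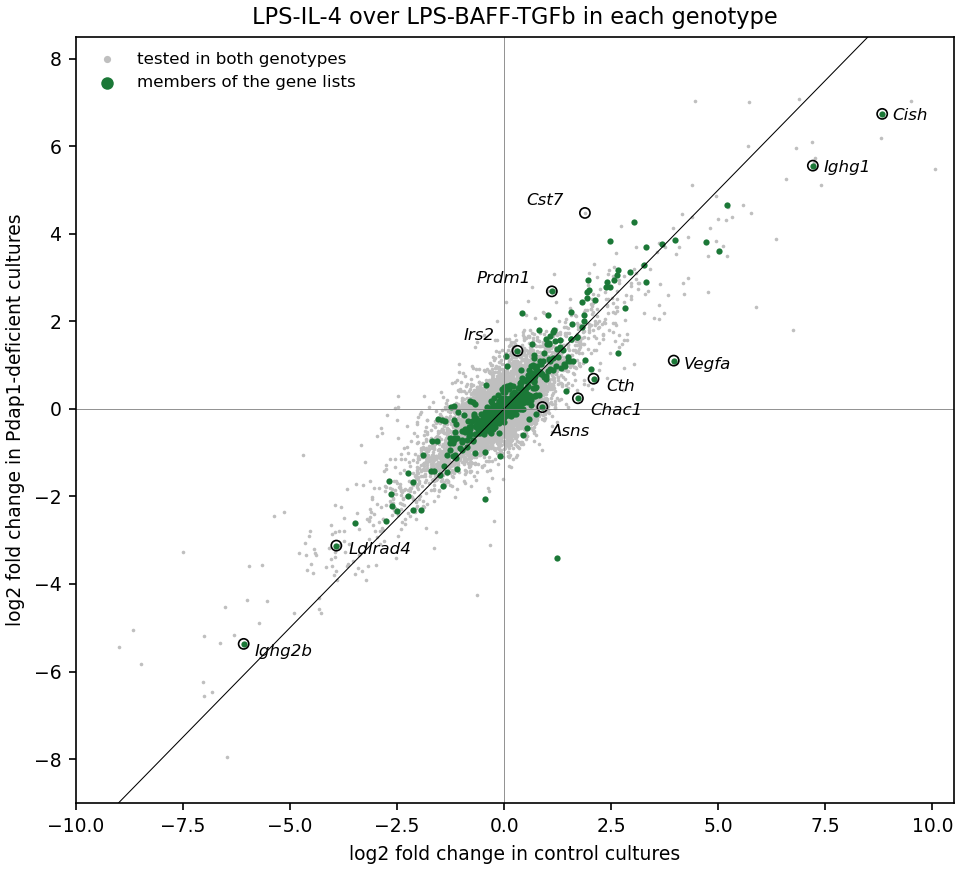
Log2 fold change of LPS-IL-4 over LPS-BAFF-TGFβ in Pdap1-deficient (y axis) against control cultures (x axis), 1 point per gene tested in both (14250 genes), with 11 genes named. Most genes lie along the diagonal (Pearson r 0.853), and Prdm1 lies above it and Vegfa and Chac1 below it.

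Whether the stimulation difference itself differed between genotypes was tested in 1 model of all 12 libraries, as the interaction of genotype and stimulation. edgeR called 0 of 15794 genes (0.0%), with a smallest adjusted p of 0.135 and 983 genes at an unadjusted p under 0.05, and DESeq2 called 6. Without control mouse 1, edgeR called 197 of 15777 (1.25%), 80 with a more positive and 117 with a more negative log2 fold change in Pdap1-deficient cells, and 28 of 527 list genes were among them. With all mice the adjusted p of these 28 was between 0.135 and 0.973, so that the calls depend on leaving out that mouse. Prdm1 had the larger stimulation difference in Pdap1-deficient cells, 2.68 against 1.17 in the remaining control mice on the log2 scale (adjusted p = 0.00355, and 0.150 with all mice). Its levels in control cultures were 18.1, 14.0 and 19.7 CPM with LPS-IL-4 and 8.95, 6.91 and 7.89 CPM with LPS-BAFF-TGFβ.

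Targets of the integrated stress response were among the genes with the smaller difference in Pdap1-deficient cells in that fit. Vegfa had log2 fold changes of 1.10 in Pdap1-deficient and 4.21 in control cells (adjusted p = 0.0057, and 0.202 with all mice), Chac1 0.24 and 2.02, Trib3 0.41 and 1.94, Cth 0.69 and 1.89, and Asns 0.04 and 0.79. Chac1 had 37.99, 32.6 and 34.2 CPM against 31.9, 27.8 and 28.9 CPM in Pdap1-deficient cultures, and 3.19, 4.02 and 3.98 CPM against 1.27, 0.849 and 1.09 CPM in control cultures. The stimulations did not overlap in either genotype, though in Pdap1-deficient cultures the lowest LPS-IL-4 library was only just above the highest LPS-BAFF-TGFβ library. Il4ra (2.91 and 3.43), Socs3 (1.29 and 2.86), Fcer2a (1.09 and 1.59), Bcl2l11 (1.11 and 1.93) and Ahr (−1.47 and −2.49) likewise had a smaller absolute difference in Pdap1-deficient cells without control mouse 1, with adjusted p between 0.00645 and 0.0475 in that fit and between 0.377 and 0.771 with all mice.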

How the data were processed

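RNA was sequenced from B cells of the spleen after 48 h in culture. Per the labels and the study's methods, RNA was extracted with TRIzol, ribosomal RNA depleted with Ribo-Zero Gold, and libraries prepared with a TruSeq Stranded kit, which the labels name as the mRNA kit and the methods as the total RNA kit. Reads were trimmed with Trim Galore 0.6.1, mapped to GRCm38 with STAR 2.6 and counted per Ensembl gene with HTSeq 0.9.1, per the submitters' processing notes, which also name DESeq2. The annotation release and strand setting are not given in the sources used here. The authors deposited raw counts for 55536 genes, 23840 of them without a count in the 12 libraries, and a second table of counts divided by 1 size factor per library, which was not used. Every sample column was mapped to a sample by its title, and 0 were left out.

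Stimulations were compared in edgeR 4.0.16 (R 4.3.3) by its robust quasi-likelihood test, with filterByExpr, TMM factors and the mouse as a block and Benjamini-Hochberg adjustment over all genes tested. Genes with an adjusted p under 0.05 were called. Log2 fold changes are LPS-IL-4 over LPS-BAFF-TGFβ with their SE, and CPM use TMM-scaled totals. With the mouse as a block, the p-values set the stimulation difference within mice against an estimated spread. edgeR draws that spread for each gene partly from these 3 mice and partly from the other genes tested. A small p therefore does not measure the spread of that gene over 3 mice alone. Differences in level between mice that both cultures share do not enter that spread. The series description gives the number of a mouse to both of its cultures. Deviations from the group means correlated within the Pdap1-deficient mice (0.629, 0.673 and 0.346 for the same mouse, −0.626 to 0.00462 between mice). In control mice the values were −0.245, 0.252 and −0.102 for the same mouse and −0.405 to 0.390 between mice. The pairing is thus not seen in control cultures, where 1989 genes were called with the block and 2874 without it. Control cultures were fitted in the same way, and the genotype by stimulation term over 12 libraries.

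The members and the 30 gene lists (567 symbols, 565 matched, written from general knowledge) were chosen with earlier results of these data known. Named genes are Pdap1, list members and, in each direction, the 12 called genes with the largest fold change at a mean of at least 10 CPM and the 8 with the smallest p, with the same direction in 3 mice and no overlap. Predicted genes and variable segments were not named, and some items that fall under this rule are not reported here. Alternatives were DESeq2 1.42.0 (Wald test), its size factors, other filters on low counts, each mouse left out, no block, all 12 libraries in 1 fit, a threshold of 0.01, thinning to 4579793 counts, and removal of immunoglobulin genes or of Lars2, ribosomal RNA-like and mitochondrially encoded features. In simulated data, 200 of 14617 genes were changed by 1 or 1.5 on the log2 scale, with no difference between mice. edgeR recovered 91% of the 200 with 23 other calls and DESeq2 76% with 2. Most called changes in the data were smaller and far more genes were called, so these shares do not carry over to the comparison. The median biological coefficient of variation was 9.38%. Gene symbols and positions are from GENCODE M21, and promoter windows from RefSeq GRCm38.p6, found for 428 of the 567 symbols.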

Additional observations from a re-analysis of the deposited data

How the results depend on the processing

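The 3854 calls in Pdap1-deficient cultures became 1675 without the replicate block (861 higher with LPS-IL-4 and 814 higher with LPS-BAFF-TGFβ, 1674 of them among the 3854), 2271 with DESeq2 (1256 and 1015), 2492 with all 12 libraries in 1 fit (1311 and 1181) and 2557 at an adjusted p under 0.01, of which 1214 were higher with LPS-BAFF-TGFβ. Without each mouse they ranged from 2576 to 3657, and those higher with LPS-BAFF-TGFβ from 1239 (without mouse 3) to 1855. The cause was not tested. DESeq2 size factors, either other filter on low counts, thinning and the removal of immunoglobulin genes or of Lars2 and ribosomal RNA-like features kept the count within 1.5 times. In control cultures the 1989 calls ranged from 959 to 5281 without each mouse. The genotype by stimulation term called 0 genes, 6 with DESeq2, 197 without control mouse 1 and 197 without a filter on low counts. Of 291 named genes followed, none changed sign under an alternative except Pdap1, whose log2 fold change ranged from −0.0643 (without mouse 3, adjusted p = 0.864) to 0.207 without each mouse, and Slpi with DESeq2 (0.13, adjusted p = 0.978). Without the replicate block 112 of the 291 lost their call, with DESeq2 48, and without mice 1, 2 and 3 33, 21 and 64. The smallest library, with 4579793 counts, limits what can be shown for genes of a few counts.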
